A study of Mus musculus with 9 samples.

Results

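The histone genes of the mouse were examined in RNA sequencing of the midbrain. They comprise 82 genes, out of 21356 named genes in the deposited table, taken by symbol: the replication-dependent genes of the Hist1 to Hist4 clusters (67 genes) and the replacement genes named H1f, H2af or H3f (15 genes), without H2afv and without symbols that end in -ps. One gene kept by this rule, H3f3c, is annotated as a processed pseudogene and was too low to be tested. The libraries came from C57BL/6 embryos at E13.5, 3 per group. The floxed control was Gpr161f/f, the Cre control was Gpr161f/+;Wnt1-Cre, and the cKO carried the floxed allele on both chromosomes together with Wnt1-Cre (the labels spell its gene Gpt161). All 3 groups carry a floxed Gpr161 allele, and the Cre control and the cKO share the Wnt1-Cre transgene, which drives recombination in the dorsal neuroectoderm of the midbrain and in the neural crest, so the dissected tissue also holds cells without recombination. Gpr161 encodes an orphan receptor that restrains Shh signaling. How many embryos went into a library is not given in the sources used here, and p-values measure the spread between libraries.

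Histones package DNA into nucleosomes, with H2A, H2B, H3 and H4 forming the core and H1 binding the linker. Replication-dependent histone genes are transcribed mainly in S phase, when new DNA has to be packaged, and their mRNAs usually end in a conserved stem-loop that is bound by Slbp in place of a poly(A) tail. Replacement histones are made throughout the cell cycle and in postmitotic neurons, from polyadenylated mRNAs. The libraries were prepared with poly-A selection, so the values of replication-dependent genes describe those transcripts that were captured in this way, and the share of each gene's mRNA that they stand for was not measured. Of 11 other RNAs that lack a poly(A) tail, 0 were among the named rows used here, so they give no measure of what the selection let through.

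The stem-loop was searched for in the GENCODE vM21 transcripts of GRCm38, after the stop codon, as a stem of 6 base pairs (GGNNCT paired with AGNNCC) and a loop of 4 bases that starts with T. It was present in 46 of the 67 replication-dependent genes, of which 52 have an annotated 3′ UTR, and in 1 of the 15 replacement genes, H2afx, the H2A variant that is phosphorylated at DNA breaks. Over all 20994 protein-coding genes with a 3′ UTR, 0.295% held these letters. The sites of 5 genes named in the results are shown, and no call of a difference made use of them. Capitals mark the stem-loop, and the 12 bases before it are in lower case.
Hist1h2ap: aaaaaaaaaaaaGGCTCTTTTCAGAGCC
Hist1h3c: tatttaaaaaaaGGCTCTTTTAAGAGCC
Hist1h4i: atgctacttaaaGGCCCTTTTTAGGGCC
Hist3h2a: acagacaccaaaGGCTCTTTTCAGAGCC
H2afx: cacctccacaaaGGCCCTTTTAAGGGCC
The letters of the Hist1h2ap stem-loop were shared by 26 members. In Hist1h2ap, 12 adenines stand directly before it, while the median over the 47 stem-loop genes was a longest run of 3 adenines in the 40 bases before the stem-loop, and 4 of the 47 had a run of at least 7 there (Hist1h2ap, Hist1h2ao, Hist1h2ae and Hist1h3c). The annotated transcript went on for 3 bases after the stem-loop in Hist1h2ap, for 74 in Hist1h3c, for 330 in Hist1h4i, for 822 in H2afx and for 1643 in Hist3h2a. A poly(A) signal (AATAAA or ATTAAA in the last 40 bases) was found in 17 of the 67 replication-dependent and in 8 of the 15 replacement genes.

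The deposited values are log2 values that the authors normalized between libraries, and the table holds no counts of reads, so the libraries' depth is unknown. Of the 82 genes, 29 reached 1 cpm (a fixed fraction of the summed linear values of a library, between 4.73 and 4.78 on the log2 scale) in at least 3 libraries and were tested. These were 20 replication-dependent genes, of which Hist1h1d reached 1 cpm in 5 of 9 libraries and the others in 9, and 9 replacement genes. Of the 47 replication-dependent genes not tested, Hist1h2ba and Hist1h2aa were listed at 0 in every library, and the values of the others lay between -1.48 and 4.79 and moved by at most 0.28 between libraries. Such a range is as wide as some differences called below, so it does not show that these genes were unchanged. The 6 replacement genes not tested were H1fnt, H1foo, H2afb1, H2afb2, H2afb3 and H3f3c, with values between -2.12 and 0.0. The values are compressed at low expression, and the median SD over the 9 libraries was 0.0404 where a row's mean lay from 2 to 4, but 0.122 where it lay from 6 to 8.

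**Figure D1:**
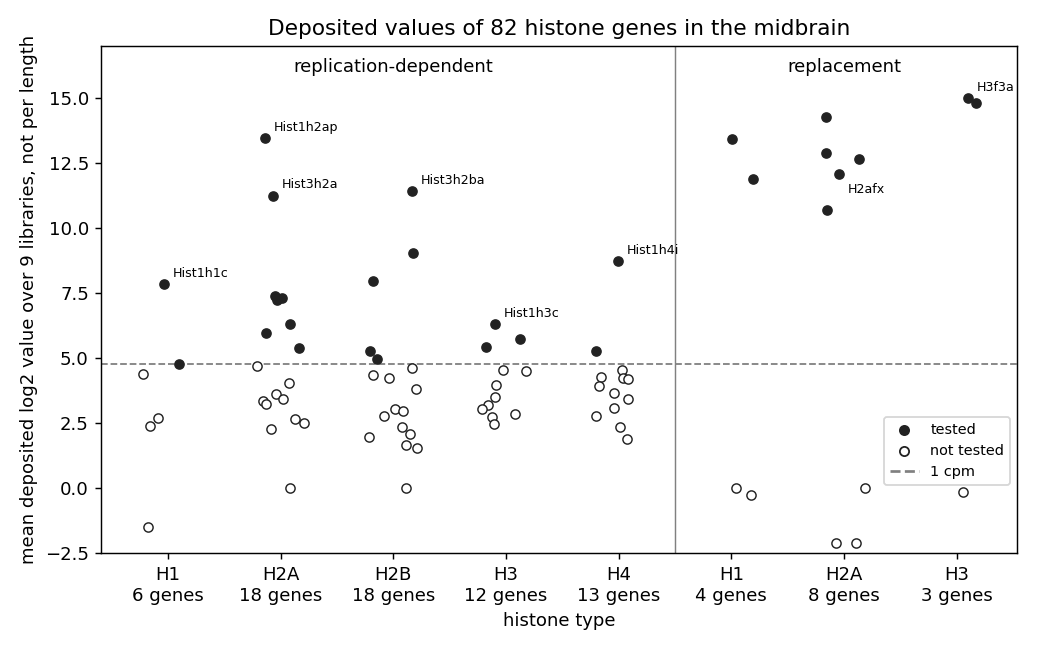
Mean deposited log2 value over 9 libraries (y axis, not divided by transcript length) of each of the 82 histone genes, by class and histone type (x axis), with filled points for the 29 genes tested and the dashed line at 1 cpm. The 9 replacement genes tested have means between 10.67 and 14.9985, and the 20 replication-dependent genes tested between 4.78 and 13.46.

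Together the 82 genes held between 0.477% and 0.532% of the linear values of a library. The replication-dependent genes held 0.068%, 0.063% and 0.063% in the floxed controls, 0.077%, 0.066% and 0.071% in the Cre controls and 0.087%, 0.076% and 0.079% in the cKO. The lowest cKO library lay between the Cre control libraries, and every cKO library was above every floxed control library. A single gene, Hist1h2ap, which encodes a core histone H2A, made up 49.7% to 54.6% of the replication-dependent sum in the floxed controls, 55.3% to 60.6% in the Cre controls and 62.6% to 68.4% in the cKO. Per length of transcript (log2 value minus the log2 of the length in kb, which takes the deposited values as not yet divided by length), Hist1h2ap was the highest of the 82 genes at 14.51, followed by H2afz at 14.16, H3f3a at 13.49 and H3f3b at 13.48. The next replication-dependent genes per length were Hist3h2ba at 12.11 and Hist3h2a at 10.14.

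The source of the Hist1h2ap signal within its family is uncertain. Only 6.64% of the 31-base words of its transcript occur in no other gene of the annotation, and 93.4% occur in Hist1h2ao, which the table lists with a mean of 2.26 against 13.46 for Hist1h2ap. Both copies carry the 12 adenines. The median share of words found in no other gene was 39.8% over the replication-dependent and 84.6% over the replacement genes. It was 7.99% for Hist1h2ai, 5.69% for Hist1h2af, 44.8% for Hist1h3c, 67.9% for Hist3h2a and 88.8% for H2afx. Values of single H2A copies in the Hist1 cluster depend on how reads were shared out between near-identical copies.

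**Figure D2:**
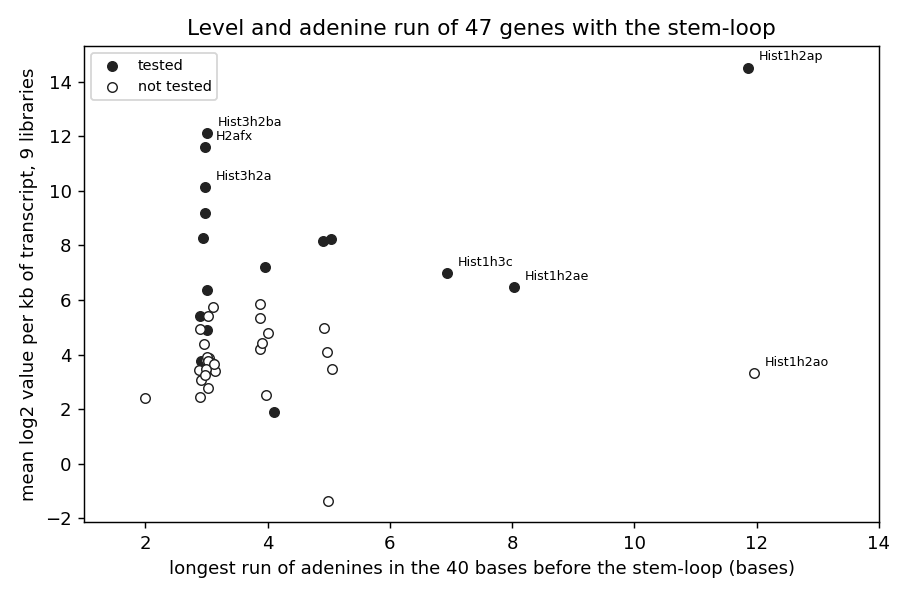
Longest run of adenines in the 40 bases before the stem-loop (x axis, bases) and mean log2 value per kb of transcript over 9 libraries (y axis) for the 47 histone genes with the stem-loop, with filled points for tested genes. Hist1h2ap, with 12 adenines, lies at 14.51, while Hist1h2ao, with the same 12 adenines, lies at 3.32, and H2afx lies at 11.59 with a run of 3.

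The first question was how the histone genes of the cKO compared with the floxed control. In the fit of all 14029 genes with limma (Benjamini-Hochberg adjusted p under 0.05), 10 of the 20 replication-dependent genes tested were higher in the cKO and 2 were lower, and 4 of the 9 replacement genes were higher and 0 lower. Over all genes tested, 19.5% were higher and 18.8% lower in this comparison. The 20 genes are not independent of each other, since several share sequence. The median log2 fold change was 0.14 over the replication-dependent genes and 0.113 over the replacement genes, against 0.0112 over all genes. The replication-dependent median was 0.0505 over the genes with the stem-loop alone and 0.0441 with no filter on low values, and the replacement median was 0.000615 with no filter. With bulk tissue, more cells of a type and more RNA per cell cannot be told apart.

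In this comparison the calls of the replication-dependent genes differed by genomic cluster, with few genes tested outside Hist1. Of the 12 genes tested in the Hist1 cluster on chromosome 13, 10 were higher and 0 lower, with log2 fold changes of all 12 between 0.027 and 0.66. Of the 5 genes tested in the Hist2 cluster on chromosome 3, 0 passed (0 also at an unadjusted p under 0.05), and their values lay between -0.15 and -0.0087. The 2 genes of the Hist3 cluster on chromosome 11 that were tested were both lower. Hist4h4, on chromosome 6, stood at -0.088 (adjusted p = 0.565). The difference between clusters was not itself tested. It was less clear against the Cre control, where 11 of the 12 Hist1 genes and 2 of the 5 Hist2 genes lay above 0. Over all genes tested, 53.7% lay above 0 in that comparison. Both Hist3 genes lay below 0 there, and 0 of them were called.

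Among the core histones of the Hist1 cluster, Hist1h2ap had log2 values of 13.29, 13.06 and 13.06 in the floxed controls, 13.59, 13.26 and 13.45 in the Cre controls and 13.99, 13.67 and 13.74 in the cKO. The cKO values lay above those of both control groups, and floxed control replicate 1 lay above the lowest Cre control. It was higher in the cKO than in the floxed control by 0.66 (SE 0.105, adjusted p = 0.00145 by limma), a fold change of 1.59 (95% interval on the log2 scale 0.43 to 0.90). It was the only member that also passed a fold change of 1.5, the study's limit for differentially expressed genes (DEGs), which 2.92% of all genes passed together with the adjusted p. With Hist1h2ao added in, the log2 of their summed linear values had means of 13.14 ± 0.135, 13.43 ± 0.168 and 13.80 ± 0.168 in the floxed control, Cre control and cKO (SD, n = 3).

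Hist1h2ap lies at chr13:21833026-21833507 of GRCm38, on the minus strand, as a single exon. Its start faces that of Hist1h2br, an H2B gene on the plus strand, at a distance of 235 bases. Hist1h2br had a mean of 3.03 and was not tested. Such divergent pairs of an H2A and an H2B gene with starts within 500 bases numbered 12 among the members. The paired genes need not be alike in value: Hist1h2bc, at 7.98, is paired with Hist1h2ac at 4.71, and Hist2h2be, at 9.05, with Hist2h2ac at 4.04. These are deposited values, not per length.

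Hist1h3c, an H3 gene, had log2 values of 6.17, 6.09 and 6.09 in the floxed controls, 6.30, 6.23 and 6.22 in the Cre controls and 6.62, 6.53 and 6.56 in the cKO. The values of the 3 groups did not overlap, and the Cre controls lay nearer to the floxed controls than to the cKO. The difference from the floxed control was 0.45 (SE 0.052, adjusted p = 0.000471 by limma), the smallest adjusted p of all members. Hist1h4i, an H4 gene, read 8.51, 8.52 and 8.58 in the floxed controls, 8.99, 8.57 and 8.66 in the Cre controls and 8.98, 8.93 and 8.92 in the cKO. Cre control replicate 1 lay level with the cKO libraries, and the other Cre controls lay near the floxed controls. The difference between cKO and floxed control was 0.41 (SE 0.0942, adjusted p = 0.00796).

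The other H2A genes of the cluster rose by less than Hist1h2ap. Hist1h2af read 5.24, 5.25 and 5.15 in the floxed controls, 5.33, 5.20 and 5.20 in the Cre controls and 5.81, 5.40 and 5.76 in the cKO, where replicate 2 lay well below the others. Its difference was 0.44 (SE 0.097, adjusted p = 0.00614). Hist1h2ai read 6.30, 6.23 and 6.15, then 6.32, 6.22 and 6.27, and then 6.49, 6.49 and 6.48 in the same order of groups. The cKO values of Hist1h2ai were nearly equal and above all 6 controls. Its difference was 0.26 (adjusted p = 0.00542), and those of Hist1h2ag and Hist1h2ae were 0.25 (adjusted p = 0.0137) and 0.23 (adjusted p = 0.00867). When the linear values of the 12 Hist1 H2A genes other than Hist1h2ap were added up, so that reads shared out among these copies counted once, the log2 sums were 8.61, 8.60 and 8.57 in the floxed controls, 8.74, 8.59 and 8.66 in the Cre controls and 8.86, 8.80 and 8.83 in the cKO. Reads exchanged between these copies and Hist1h2ap, whose values were far higher, are not accounted for by this sum. The cKO sums lay above all control sums, and no test was made on a sum over members.

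The H2B genes Hist1h2bc and Hist1h2bk were higher in the cKO by 0.26 (SE 0.061, adjusted p = 0.00801) and 0.21 (SE 0.0466, adjusted p = 0.0071). Hist1h2bc read 7.803, 7.868 and 7.869 in the floxed controls, 8.034, 7.929 and 8.003 in the Cre controls and 8.053, 8.060 and 8.217 in the cKO. Its 3 groups did not overlap, although Cre control replicate 1 came close to the lowest cKO. The linker histone gene Hist1h1c read 7.59, 7.86 and 7.71, then 7.76, 7.84 and 7.81, and then 8.04, 7.97 and 8.02. The floxed controls spread over the range of the Cre controls, and the cKO lay above both. The difference of Hist1h1c was 0.29 (SE 0.0696, adjusted p = 0.00943). The remaining genes of the Hist1 cluster that were tested, Hist1h1d and Hist1h2be, had differences of 0.074 (adjusted p = 0.263) and 0.027 (adjusted p = 0.688).

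**Figure D3:**
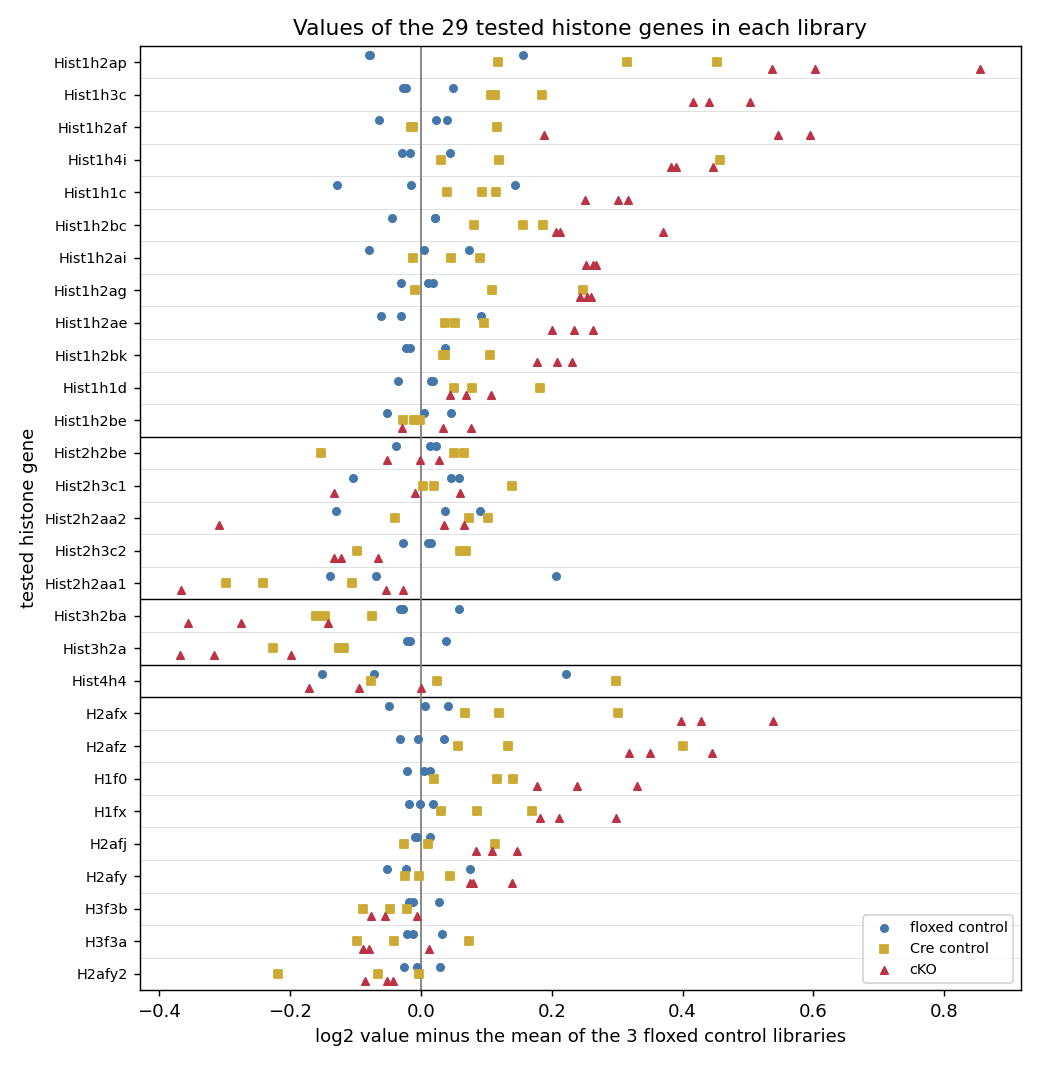
Log2 value of each of the 29 tested histone genes in each library, minus the mean of the 3 floxed control libraries (x axis), with circles for floxed control, squares for Cre control and triangles for cKO, and lines between the Hist1, Hist2, Hist3, Hist4 and replacement genes. The triangles of the 10 Hist1 genes called higher lie to the right of their circles and those of both Hist3 genes to the left.

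Hist3h2a and Hist3h2ba, neighbours in the small Hist3 cluster, moved in the opposite direction. Hist3h2a read 11.38, 11.37 and 11.43 in the floxed controls, 11.17, 11.28 and 11.27 in the Cre controls and 11.03, 11.08 and 11.19 in the cKO. All Cre control and cKO libraries were below all floxed controls, and the Cre control and the cKO overlapped. Hist3h2a fell by 0.29 on the log2 scale (SE 0.0508, adjusted p = 0.00217), or 0.816 of the floxed control. Hist3h2ba read 11.51, 11.51 and 11.60, then 11.39, 11.38 and 11.46, and then 11.18, 11.26 and 11.40, and fell by 0.26 on the log2 scale (SE 0.0557, adjusted p = 0.00581). In this gene, too, cKO replicate 3 reached into the range of the Cre controls.

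The Hist3 genes lie at chr11:58954685-58956830 (Hist3h2a) and chr11:58948920-58949533 (Hist3h2ba) of GRCm38, both on the plus strand. Of the words of Hist3h2a, 32.1% also occur in Trim17. Whether the libraries kept the strand is not given in the sources used here, so reads of the overlap cannot be assigned. Trim17 had a mean of 6.65 and a log2 fold change of -0.019 (adjusted p = 0.82). Of the words of Hist3h2ba, 32.9% occur in the pseudogene Hist3h2bb-ps. Both Hist3 transcripts hold the stem-loop and a poly(A) signal further downstream. Their values per length, 12.11 and 10.14, placed them next to Hist1h2ap among the replication-dependent genes.

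The sequences before the starts of Hist1h2ap and Hist3h2a are shown because these are the leading members of the clusters that moved in opposite directions. They are 250 bases long, from RefSeq on GRCm38.p6, and capitals mark 3 motifs on either strand: the CCAAT box, the TATA box searched as TATAAA, and the octamer known from H2B promoters, searched as ATTTGCAT. The Hist1h2ap sequence is the reverse strand of chr13:21833476-21833725, and that of Hist3h2a is chr11:58954435-58954684. RefSeq places the start of Hist1h2ap further downstream than GENCODE, so the end of its window lies within the GENCODE transcript.
Hist1h2ap: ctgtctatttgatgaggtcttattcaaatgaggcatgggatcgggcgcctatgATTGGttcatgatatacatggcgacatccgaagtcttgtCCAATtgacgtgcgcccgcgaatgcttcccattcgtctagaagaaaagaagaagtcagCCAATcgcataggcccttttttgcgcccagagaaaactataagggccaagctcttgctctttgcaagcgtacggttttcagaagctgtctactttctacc
Hist3h2a: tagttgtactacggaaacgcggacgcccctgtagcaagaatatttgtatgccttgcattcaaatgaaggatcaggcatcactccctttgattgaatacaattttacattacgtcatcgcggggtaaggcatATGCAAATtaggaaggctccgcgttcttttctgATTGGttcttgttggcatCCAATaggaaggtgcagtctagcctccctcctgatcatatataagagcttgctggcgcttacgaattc
Hist1h2ap held 3 CCAAT matches and Hist3h2a held 2, and Hist3h2a also held 1 octamer. Over 63 windows of replication-dependent genes, 82.5% held CCAAT, 46.0% TATAAA and 22.2% the octamer, against 33.8%, 12.4% and 1.6% of all 32851 promoters of this length and 57.1%, 7.14% and 7.14% of 14 windows of replacement genes. The octamer occurred in 38.9% of the H2A and 41.2% of the H2B windows and in 0 of those of H1, H3 and H4. Other spellings of these motifs were not searched, and a match is not evidence of binding.

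Of the 5 genes tested in the Hist2 cluster, 0 were called between cKO and floxed control, and all 5 differences lay below 0. The largest was that of Hist2h2aa1, -0.15, with a 95% interval from -0.398 to 0.1. This interval includes falls as large as those of the Hist3 genes. Hist2h3c2 differed by -0.11 (adjusted p = 0.16 by limma), and all of its cKO libraries lay below all of its floxed controls. Hist2h2be, an H2B gene whose transcript is 97.2% words of its own, read 9.078, 9.018 and 9.070 in the floxed controls, 9.121, 8.903 and 9.106 in the Cre controls and 9.082, 9.003 and 9.054 in the cKO, and the groups overlapped. Its difference was -0.0087, with a 95% interval from -0.15 to 0.13. The copies Hist2h2aa1 and Hist2h2aa2 have 0% words of their own. In floxed control replicate 2, Hist2h2aa1 read 7.71 and Hist2h2aa2 7.19, and in cKO replicate 2 they read 7.13 and 7.39, so the copies moved apart in opposite directions. Over the 9 libraries the SD was 0.17 for Hist2h2aa1 and 0.134 for Hist2h2aa2, but 0.0709 for the log2 of their summed linear values. The sums were 8.42, 8.47 and 8.36 in the floxed controls, 8.30, 8.34 and 8.34 in the Cre controls and 8.26, 8.27 and 8.40 in the cKO, which overlapped the floxed control.

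Of the replacement histones, H2afx showed the largest difference. It read 11.86, 11.80 and 11.89 in the floxed controls, 12.15, 11.97 and 11.92 in the Cre controls and 12.28, 12.39 and 12.25 in the cKO. The 3 groups did not overlap. The difference from the floxed control was 0.45 (SE 0.0624, adjusted p = 0.000873), a fold change of 1.37. H2afx is also the replacement gene that holds the histone stem-loop, in a transcript with a poly(A) signal at its end. H2afz, the H2A variant found at promoters, read 14.10, 14.04 and 14.06 in the floxed controls, 14.47, 14.12 and 14.20 in the Cre controls and 14.51, 14.39 and 14.42 in the cKO. Cre control replicate 1 lay within the cKO range, and the other Cre controls below it. The difference of H2afz was 0.37 (SE 0.0794, adjusted p = 0.00549). Of the words of its longest coding transcript, 22.2% occur in no other gene and 61.5% occur in Tmcc1, which was lower in the cKO by -0.23 on the log2 scale (adjusted p = 0.00161).

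Both linker histones of the replacement class were higher in the cKO. H1f0, which accumulates in differentiated cells, read 13.327, 13.336 and 13.302 in the floxed controls, 13.463, 13.343 and 13.439 in the Cre controls and 13.652, 13.4996 and 13.560 in the cKO. Its difference was 0.25 (SE 0.0489, adjusted p = 0.00374), and that of H1fx was 0.23 (SE 0.0457, adjusted p = 0.00385). In both genes the 3 groups did not overlap, although Cre control replicate 2 of H1f0 lay close to the floxed controls. The macroH2A genes H2afy and H2afy2, with 0.098 (adjusted p = 0.0993) and -0.059 (adjusted p = 0.396), and H2afj, with 0.11 (adjusted p = 0.0628), did not pass. The H3.3 genes, which supply H3 outside S phase, had the highest deposited values of all members. H3f3a read 15.011, 15.002 and 15.055 in the floxed controls, 15.097, 14.925 and 14.982 in the Cre controls and 14.935, 14.943 and 15.036 in the cKO. H3f3b read 14.83, 14.83 and 14.87, then 14.76, 14.80 and 14.82, and then 14.77, 14.79 and 14.84. Their groups overlapped between cKO and floxed control, with differences of -0.051 (95% interval -0.17 to 0.071) and -0.045 (95% interval -0.14 to 0.050).

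The Cre control shares the transgene with the cKO but carries a single floxed allele, so this comparison sets recombination of both alleles against recombination of 1. Against it, 3 of the 20 replication-dependent genes were higher in the cKO and 0 lower, and 1 of the 9 replacement genes was higher and 0 lower, while over all genes 4.86% were higher and 4.85% lower. At an unadjusted p under 0.05, 7 replication-dependent genes were higher and 2 lower, and 3 replacement genes were higher, where 15.4% of all genes were higher and 13.9% lower. The 4 genes called were Hist1h3c, with a log2 fold change of 0.32 (SE 0.052, adjusted p = 0.0109), Hist1h2af with 0.41 (SE 0.097, adjusted p = 0.0313), Hist1h2ai with 0.22 (SE 0.0555, adjusted p = 0.039) and H2afx with 0.29 (SE 0.0624, adjusted p = 0.0237). Only Hist1h3c kept an adjusted p under 0.05 in every alternative fit that held it, with values up to 0.0477 by limma. Hist1h2ap was higher by 0.37 (SE 0.105, adjusted p = 0.0528), and Hist3h2a and Hist3h2ba had values of -0.14 (adjusted p = 0.107) and -0.13 (adjusted p = 0.152). By the DEG limits 0 members passed, against 0.563% of all genes. The median log2 fold change was 0.0934 for the replication-dependent and 0.0921 for the replacement genes, against 0.0117 for all genes.

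One library weighed on this comparison. Without Cre control replicate 1, which had the highest value of its group in Hist1h2ap, Hist1h4i, H2afz and H2afx, 9 replication-dependent genes passed (7 higher, 2 lower) and 5 replacement genes were higher. In that fit 10.9% of all genes were higher and 12.5% lower, so the calls over all genes rose as well. Leaving out any other library of these groups gave 1 to 2 replication-dependent and 0 to 1 replacement genes. The Cre control then rests on 2 libraries, which are assumed to vary like the other groups.

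**Figure D4:**
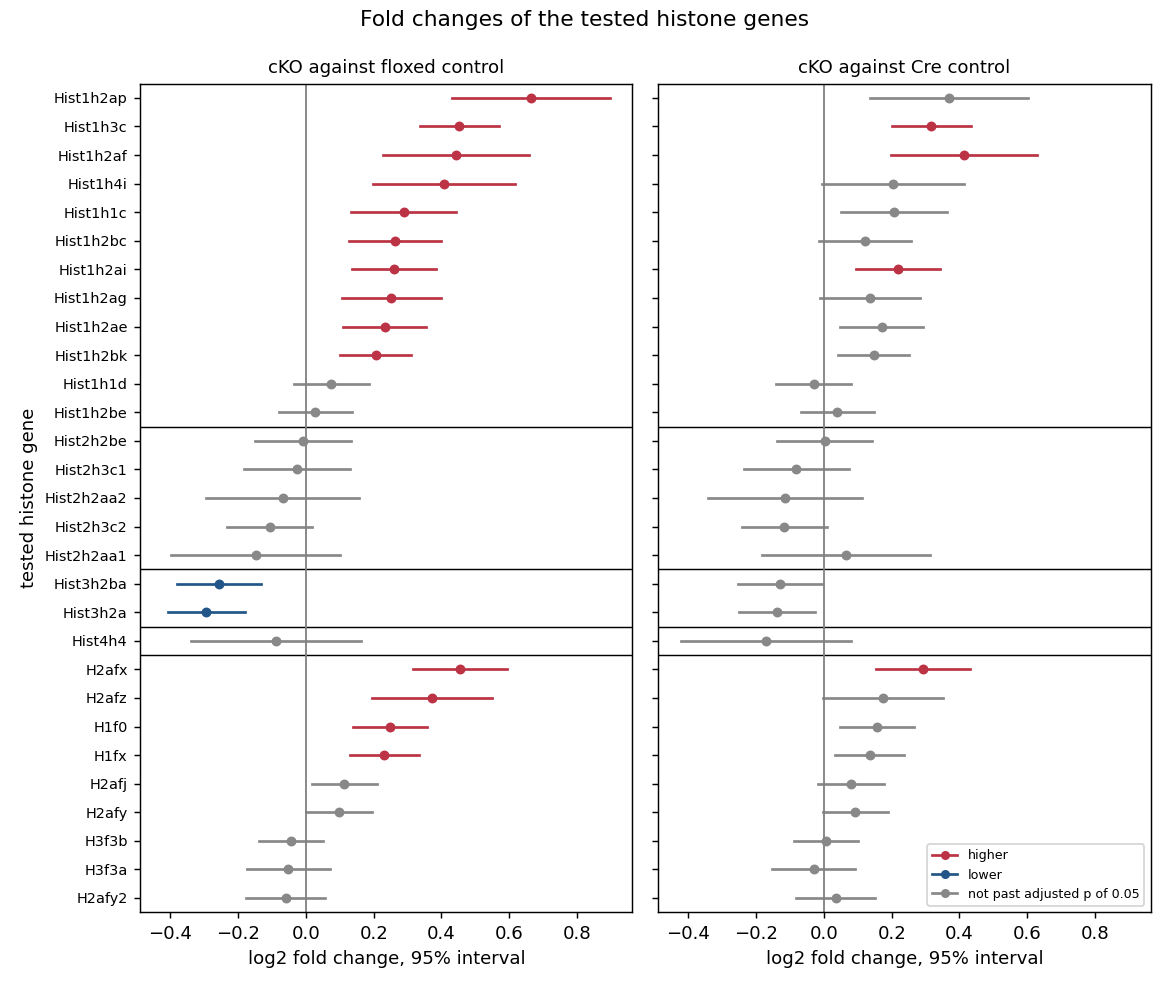
Log2 fold change with its 95% interval (x axis) of the 29 tested histone genes in cKO against floxed control (left) and cKO against Cre control (right), from the fit of all 9 libraries, coloured by whether the gene passed an adjusted p of 0.05. On the left 14 genes are higher and 2 lower, and on the right 4 are higher and 0 lower.

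When both controls were compared with each other, limma called 0 of the 29 members, while 0.057% of all genes (8 genes) were called in either direction. At an unadjusted p under 0.05, 5 members were higher and 2 lower, where 8.77% of all genes were higher and 8.7% lower (2451 in either direction). The 2 lower members were Hist3h2a at -0.16 (adjusted p = 0.194) and Hist3h2ba at -0.13 (adjusted p = 0.277), and Hist1h2ap was at 0.30 (adjusted p = 0.218). All 16 members called between cKO and floxed control had a Cre control mean between those of the other groups. They were picked for their gap between cKO and floxed control, which by itself makes a mean in between likely. The share over all called genes was not worked out, so this order is not read as a trait of histone genes. These 3 comparisons share their libraries, so their values are not independent.

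The genes that serve histones were compared by lists written from general knowledge. Of 20 S phase and G1/S genes, 20 were called higher in the cKO than in the floxed control, where 19.5% of all genes were. All 20 also had a higher mean than in the Cre control, and 11 of them were called, where 4.86% of all genes were called higher. In this order of comparisons, the 20 genes had median log2 fold changes of 0.432 and 0.233. The log2 of their summed linear values was 15.16 to 15.22 in the floxed controls, 15.33 to 15.47 in the Cre controls and 15.54 to 15.74 in the cKO. Rrm2, a subunit of the reductase that makes deoxynucleotides, rose by 0.64 (adjusted p = 0.000721), about as much as Hist1h2ap, and Cdk2, a kinase of S phase entry, by 0.41 (adjusted p = 0.000373). These genes moved with the Hist1 genes across the groups, and their part in the result was not tested.

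Of 19 genes for the transcription and 3′ end processing of histone mRNAs, 5 were higher and 1 lower in the cKO than in the floxed control, a share near the 19.5% and 18.8% of all genes for those higher and below it for those lower. Slbp, the stem-loop binding protein, read 10.90, 10.87 and 10.89 in the floxed controls, 11.16, 11.02 and 11.02 in the Cre controls and 11.23, 11.17 and 11.16 in the cKO. It rose by 0.30 (SE 0.0453, adjusted p = 0.00131), and Cre control replicate 1 again lay beside the cKO. Zfp473, which works in histone 3′ processing, rose by 0.29 (adjusted p = 0.00609). Lsm11, a protein of the U7 particle that cleaves these mRNAs, fell by 0.32 on the log2 scale (adjusted p = 0.00568), and Npat, the coactivator of histone transcription, was at 0.050 (adjusted p = 0.448). Against the Cre control, 1 was higher (Sympk, a scaffold of the cleavage complex, by 0.18, adjusted p = 0.0396) and 1 lower (Lsm11, -0.25, adjusted p = 0.0479), near the shares of 4.86% and 4.85% over all genes.

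Among 21 histone chaperones and deposition factors tested, 11 were higher and 1 lower in the cKO than in the floxed control (median 0.123). Over all genes, 19.5% were higher and 18.8% lower. Of the subunits of chromatin assembly factor 1, which deposits H3 and H4 at replication forks, Chaf1a at 0.48 (adjusted p = 0.000337) and Chaf1b at 0.45 (adjusted p = 0.00242) were among them, while Rbbp4 was at 0.095 (adjusted p = 0.106). Cenpa, the centromeric H3 variant, was at 0.60 (adjusted p = 0.00203). Of the factors for H3.3, Hira was at 0.050 (adjusted p = 0.415) and Daxx at 0.075 (adjusted p = 0.293), while Atrx fell by 0.29 on the log2 scale (adjusted p = 0.00556). Against the Cre control 4 were higher and 0 lower: Chaf1a, Chaf1b, Rbbp7 and Ssrp1. In that comparison 4.86% of all genes were higher and 4.85% lower.

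Markers of cell types moved across the same groups. For scale, 19.5% of all genes were higher and 18.8% lower in the cKO than in the floxed control. Against the Cre control these shares were 4.86% and 4.85%. Of 12 neuron markers, 12 were lower in the cKO than in the floxed control (median -0.508) and 4 were lower than in the Cre control, and their log2 sums were 17.26 to 17.37, 16.91 to 17.21 and 16.74 to 16.91 in the floxed control, Cre control and cKO. Of 10 progenitor markers, 7 were higher than in the floxed control and 3 higher than in the Cre control, with sums of 16.58 to 16.64, 16.6 to 16.71 and 16.8 to 16.9. Of 11 erythroid markers tested, 7 were higher than in the floxed control and 5 higher than in the Cre control, with sums of 17.22 to 17.99, 17.49 to 17.69 and 17.87 to 18.82. The cKO replicates 1 and 3, with Hba-a1 at 16.14 and 16.30 against 15.33 in replicate 2, were also those with the higher values of Hist1h2af. This order was not shared by all members, since H2afx was highest in cKO replicate 2 (12.39, against 12.28 and 12.25). Floxed control replicate 2 had Hba-a1 at 15.41 and Hist1h2af at 5.25, where cKO replicate 2 had Hist1h2af at 5.40. Mesenchyme and meninges markers (8 of 10 higher), endothelial markers (4 of 8 higher) and microglia markers (1 of 8 higher) passed against the floxed control, and 0 of them passed against the Cre control. No marker of these lists was at 0. Of 8 midbrain region markers, 1 was higher and 3 lower than in the floxed control. The part of these cell types in the values of the histone genes was not tested.

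Gpr161 itself read 11.80, 11.74 and 11.78 in the floxed controls, 11.77, 11.91 and 11.96 in the Cre controls and 11.74, 11.96 and 11.94 in the cKO, so its value was not lower in the libraries labelled cKO. These values do not show the deletion, and every direction given for the cKO rests on the labels.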

How the data were processed

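Poly-A selected RNA (NEBNext Ultra RNA) from E13.5 midbrain was sequenced by the authors. The submitters' processing notes list FastQC 0.10.1, kallisto 0.46.1, DESeq2 and mm10. The authors deposited 1 table of 27360 rows as log2 values for 9 libraries, and its transformation is not given in the sources used here. From these values, named rows that reached 1 cpm (on linear values) in 3 or more libraries entered, 118 repeats were dropped, and 14029 genes were fitted in R 4.3.3 with limma 3.58.1 (1 mean per group, eBayes with a trend, two-sided, Benjamini-Hochberg over all genes). The fit was tested on simulated data. Per-library values are given for members past an adjusted p of 0.05 and for the highest members of each class or histone type. Stem-loops and shared 31-base words were searched in GENCODE vM21 transcripts. Lists were described by counts alone. The members, lists and tests were chosen with earlier results of these data known. Alternatives were other filters, scalings, call rules and sets of libraries. Replicate numbers were not used as pairs.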

Additional observations from a re-analysis of the deposited data

How the results depend on the processing

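All 16 members called between cKO and floxed control kept an adjusted p under 0.05 in each alternative fit that held them, and no value reversed. By the DEG limits only 1 of them, Hist1h2ap, passed. Between cKO and floxed control, the count of replication-dependent genes ran from 1 to 17 over the alternatives. It was 7 with at least 5 cpm (fewer members fitted) and 1 by the DEG limits. Their median was 0.0441 with no filter and 0.0505 for stem-loop genes alone. The replacement count was 7 after quantile normalization and 0 by the DEG limits, and the replacement median was 0.000615 with no filter, where silent genes enter. Between cKO and Cre control, the replication-dependent count was 1 with at least 5 cpm, 1 with only the 6 libraries compared, 5 after quantile normalization, 0 by the DEG limits and 1 to 9 when 1 library was left out, and the median was 0.0289 with no filter. The replacement count was 0 with no filter, with the 6 libraries and by the DEG limits, and 0 to 5 when 1 library was left out, and the median was 0.00618 with no filter. H2afx lost its call in 6 of 13 alternative fits (adjusted p from 0.00284 to 0.0844), Hist1h2af in 6 of 12 (0.0093 to 0.123) and Hist1h2ai in 7 of 12 (0.0195 to 0.13). Beyond fewer genes or libraries, the cause of these changes was not tested. With the replicate number as a block, 12 replication-dependent and 4 replacement genes passed between cKO and floxed control, and 4 and 1 between cKO and Cre control. The pairing was not used, since not every pair of libraries with the same number correlated over 0.1: their correlations ran from -0.027 to 0.26 (median 0.1), those of the cKO with the Cre control being 0.26, 0.0865 and 0.171, against -0.28 to 0.16 (median -0.053) for different numbers. The unknown depth and the shrinkage at low values limit what can be said of the 53 genes not tested.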
